A study of Homo sapiens with 20 samples.

Results

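The regions described here are stretches of chromatin that carried H3K27ac in LNCaP cells given control siRNA and in which no H3K27ac was called after CTCF siRNA. They were chosen by merging all overlapping H3K27ac regions of 4 LNCaP libraries on chromosomes 1 to 22 and X, with a shared base as the least overlap, and keeping those that both control libraries called and neither CTCF siRNA library did. This left 1540 of 127074 merged regions, or 1.21% of all merged regions, called control-only regions here. They were 2.99% of the 51552 merged regions that both control libraries shared. Since the H3K27ac lists chose these regions, every H3K27ac value below is a description and carries no test.

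The study asked what becomes of chromatin when CTCF is depleted in LNCaP cells, an androgen-sensitive line from a prostate cancer metastasis, and in IMR90 cells, a line of lung fibroblasts. Cells received 20 nM of a Non-Target siRNA pool (control) or of an siRNA pool against CTCF, and chromatin was taken at 144 h, after a second transfection on the way. Chromatin immunoprecipitation with sequencing (ChIP-seq) was done for H3K27ac, H3K4me3 and CTCF in LNCaP and for CTCF in IMR90, with 2 libraries per treatment, each labelled as a biological replicate. Each cell line is a single line grown in culture, and siRNA lowers CTCF without removing its gene.

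H3K27ac, the acetylation of lysine in the tail of histone H3, marks active enhancers and active promoters. H3K4me3 on the same histone marks promoters mainly. CTCF is a zinc finger protein that binds a long motif, stops cohesin as it extrudes chromatin loops and so helps to set the borders of topological domains, within which enhancers meet promoters.

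The siRNA lowered the target's own signal, since 37969 and 46293 CTCF peaks were called in the LNCaP control libraries against 3711 and 7716 after CTCF siRNA. H3K27ac lists ran the other way, with 86949 and 69949 regions in control and 94415 and 98973 after CTCF siRNA. The longer CTCF siRNA lists leave less room for a region to be absent from both. As a check of the cell type, the start sites of the luminal prostate marker genes KLK3, KLK2, TMPRSS2, FOLH1, HOXB13, KRT8 and KRT18 lay under H3K27ac in all 4 libraries, while those of the immune markers PTPRC and CD3E did so in none. Of 3 basal markers 1 was covered, in control replicate 1 only, and of 3 stromal markers 1 was covered, COL1A1, in all 4 libraries.

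Control CTCF sites, meaning merged CTCF peaks called in both LNCaP control libraries, lay inside 300 control-only regions. Sequence under 7 of them is shown first, since these sites recur below with their fate after CTCF siRNA. Each line runs 5′ to 3′ on the strand of the motif and the capitals mark the 14 bases that came closest to the CTCF core consensus within 100 bp of the summit. Coordinates are on hg19 (GRCh37).
downstream of HSPB1, peak kept in both CTCF siRNA libraries, chr7:75943699-75943758, minus strand: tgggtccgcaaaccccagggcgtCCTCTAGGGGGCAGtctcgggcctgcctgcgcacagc
intron of ZNF131, peak kept in 1 library, chr5:43105968-43106027, plus strand: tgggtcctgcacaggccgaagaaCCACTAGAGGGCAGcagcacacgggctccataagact
past the 3′ end of PAX1, peak kept in 1 library, chr20:21700413-21700472, plus strand: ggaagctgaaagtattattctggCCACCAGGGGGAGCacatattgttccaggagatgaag
edge of a coding exon of ENTREP3, no peak left, chr1:155220596-155220655, plus strand: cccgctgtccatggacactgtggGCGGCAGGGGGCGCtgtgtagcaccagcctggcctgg
downstream of TMEM106A, no peak left, chr17:41387266-41387325, minus strand: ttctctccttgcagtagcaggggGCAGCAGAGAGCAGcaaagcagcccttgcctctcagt
upstream of ANXA6, no peak left, chr5:150544509-150544568, minus strand: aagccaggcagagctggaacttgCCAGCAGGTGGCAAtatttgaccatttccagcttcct
upstream of MBL2, no peak left, chr10:54577853-54577912, plus strand: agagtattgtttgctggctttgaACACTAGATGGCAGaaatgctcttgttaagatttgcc
The ZNF131 site matched the consensus in full, the HSPB1, PAX1, ANXA6 and MBL2 sites had 1 mismatch, and the ENTREP3 and TMEM106A sites had 2 mismatches.

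Control-only regions were narrow and ranked low in the lists that called them. Their median width was 1150 bp (interquartile range 950 to 1450 bp, range 550 to 6800 bp), against 2700 bp for the 47263 regions called in all 4 libraries and 1450 bp for the 10989 regions called in both CTCF siRNA libraries and neither control library. The control libraries called a median of 1050 bases (replicate 1) and 850 bases (replicate 2) inside them, and 1496 of 1540 consisted of 1 called region per control library. Each control list was ordered by score, lowest first and then widest, with 1% at the top. The meaning of this score is not stated. The best region inside a control-only region stood at a median of 65.4% of the list in replicate 1 and 77.0% in replicate 2. Regions of all 4 libraries stood at 28.9% and 36.6%, but these wider regions can hold several called regions, of which the best counted. Only 59 control-only regions in replicate 1 (3.83%) and 3 in replicate 2 (0.195%) were among the best 25% of the list. Regions of both control libraries and 1 CTCF siRNA library, with a median width of 1450 bp, stood at 61.1% and 72.9%. Of these, 4.11% and 0.327% were among the best 25%, so low rank was not particular to control-only regions. Only 28 had at least 2000 bases called in both control libraries.

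The nearest H3K27ac of either CTCF siRNA library lay a median of 4650 bp away. It lay within 1 kb of 283 control-only regions (18.4%) and was more than 10 kb away from 492 (31.9%, 95% Wilson interval 29.7 to 34.3), more than 50 kb away from 104 and more than 100 kb away from 32. These intervals, here and below, cover counting error only. A control region outside the control-only class stood within 1 kb of 327 control-only regions (21.2%). Neighbouring control-only regions were not counted in this. When regions up to 1000 bp apart were merged, 1201 of 1540 still lay in a region exclusive to control. At the edge of the rule, 14 control-only regions touched a CTCF siRNA region with no shared base, among them one each near SERBP1, PPIF and SMCO4. On the other side, control regions near DNAJC11, P3H1 and GPR37L1 were left out for an overlap of 50 bp. Another 2749 merged regions had both control libraries and just 1 CTCF siRNA library, which was replicate 2 in 1656 cases and replicate 1 in 1093.

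Most control-only regions lay away from promoters. A start site annotated by GENCODE was within 1 kb of 263 (17.1%, 15.3 to 19.04), against 37.1% of regions of all 4 libraries and 17.3% of regions exclusive to CTCF siRNA. Introns alone held 631 (41.0%), exons away from start sites 140 (9.09%), and 506 (32.9%, 30.6 to 35.2) were outside every gene. The share outside genes was 19.3% (18.9 to 19.6) for regions of all 4 libraries and 22.8% (22.02 to 23.6) for those exclusive to CTCF siRNA, and neither interval overlaps that of the control-only regions. For regions of both control libraries and 1 CTCF siRNA library it was 29.4% (27.7 to 31.1), an interval that does overlap. Of that class, 19.8% had a start site within 1 kb. Neither trait was therefore particular to control-only regions. Chromosomes differed in how many of the regions shared by both control libraries fell in this group, from 1.51% on chromosome 22 (14 of 926) to 5.02% on chromosome 13 (48 of 956), with chromosome X at 4.49% (59 of 1315).

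Control-only regions held a CTCF site more often than other H3K27ac regions. A control CTCF site overlapped 300 of 1540 (19.5%, 17.6 to 21.5), against 5103 of 47263 regions of all 4 libraries (10.8%, 10.5 to 11.1), 569 of 10989 regions exclusive to CTCF siRNA (5.18%, 4.78 to 5.61) and 252 of 2749 regions of both control libraries and 1 CTCF siRNA library (9.17%, 8.14 to 10.3). The CTCF libraries played no part in the choice of the regions. By library, CTCF peaks covered 21.2% and 21.6% of control-only regions in control cells and 13.2% and 14.3% of regions of all 4 libraries, so the values of the 2 libraries did not overlap between the classes. Of the 300, 291 held a single site and 9 held more.

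**Figure D1:**
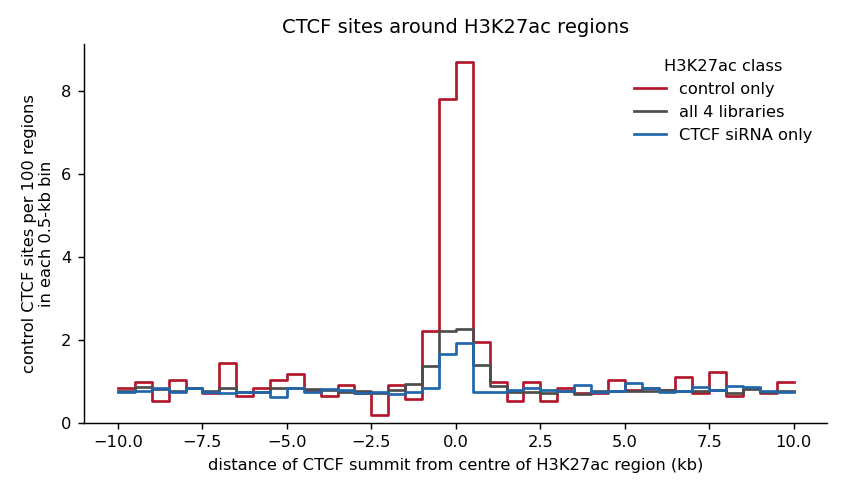
Control CTCF sites per 100 H3K27ac regions (vertical axis) in bins of 0.5 kb by the distance of the CTCF summit from the centre of the region in kb (horizontal axis), for regions called in control only, in all 4 libraries and after CTCF siRNA only. The bins on either side of the centre held 7.79 and 8.70 sites per 100 control-only regions against 1.66 to 2.26 in the other classes, while bins beyond 1 kb held 0.195 to 1.43 sites per 100 control-only regions and 0.619 to 0.965 in the others.

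The excess lay inside the regions. Within 500 bp of the centre, 120 and 134 summits lay on either side, or 7.79 and 8.70 per 100 control-only regions, against 2.21 and 2.26 for regions of all 4 libraries and 1.66 and 1.91 for regions exclusive to CTCF siRNA. This window took in nearly all of a typical control-only region and a smaller part of the wider regions of all 4 libraries. Of 292 summits inside the regions, 174 (59.6%) were in the central 50% of the region, against 63.3% for regions of all 4 libraries. Farther out the order did not hold, with a site within 50 kb of 70.6% of control-only regions, 74.8% of regions of all 4 libraries and 73.9% of those exclusive to CTCF siRNA. For the 1240 control-only regions with no site inside, the nearest one was a median of 32642.5 bp away, and 26262.5 bp away for such regions of all 4 libraries. Of these 1240, 305 (24.6%, 22.3 to 27.1) had a site within 10 kb, against 23.9% of such regions of all 4 libraries.

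**Figure D2:**
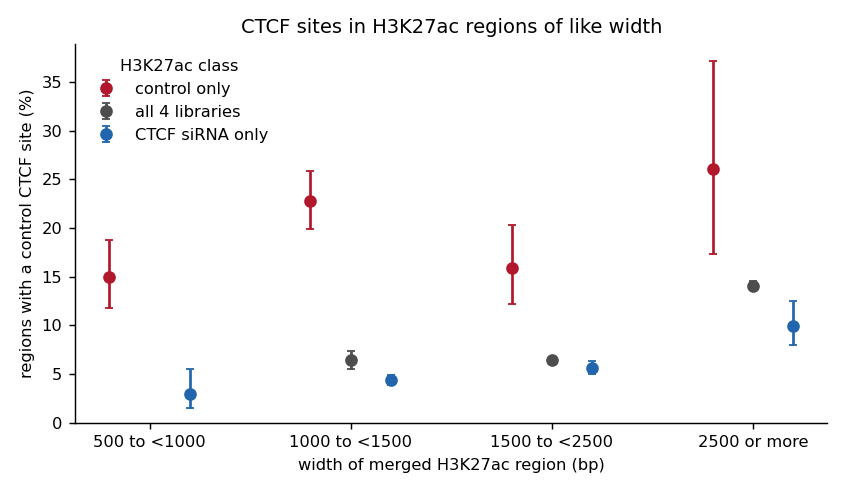
Percent of merged H3K27ac regions that hold a control CTCF site (vertical axis) by width of the region in bp (horizontal axis) and class, with 95% Wilson intervals. The control-only regions lie above both other classes at each width, by the widest margin at 1000 to under 1500 bp (22.7% against 6.41% and 4.35%), and only 3 regions of all 4 libraries were under 1000 bp, so that point is not drawn.

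Wider regions can hold more sites, so classes were also compared at like width. Under 1000 bp, 60 of 401 control-only regions held a site (15.0%, 11.8 to 18.8), against 2.95% of those exclusive to CTCF siRNA. Among regions of 1000 to under 1500 bp, 172 of 757 control-only regions held a site (22.7%, 19.9 to 25.8), against 6.41% (5.53 to 7.41) of regions of all 4 libraries and 4.35% (3.85 to 4.91) of those exclusive to CTCF siRNA. At 1500 to under 2500 bp the shares were 15.9%, 6.42% and 5.66%. Away from start sites the order was the same, at 17.9% of 1277 control-only regions, 7.23% and 4.91%, and at start sites it was 27.4% of 263, 16.9% and 6.47%. The comparison over all widths rested on both control H3K27ac libraries. Without control replicate 1, 6235 regions met the rule and 8.34% held a site, below the 10.4% of regions called in all the libraries left, and without control replicate 2 there were 12102 regions at 7.19% against 9.68%. At 1000 to under 1500 bp, a comparison added after the data were seen, the control-only share was above the other in both cases, at 18.9% against 5.68% and at 11.0% against 4.81%. Control-only regions with a CTCF site lay within 1 kb of a start site more often (24.0%, 19.5 to 29.1) than those without (15.4%, 13.5 to 17.5), and the nearest CTCF siRNA H3K27ac was over 10 kb away for 30.7% and 32.3%.

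Most of these CTCF sites had no peak left after CTCF siRNA, at the rate of CTCF sites in general. Of 309 sites inside control-only regions, 242 (78.3%, 73.4 to 82.5) lost their peak from both CTCF siRNA libraries, 44 (14.2%) kept one in a single library and 23 (7.44%, 5.01 to 10.9) kept one in both. Over all 33377 control sites, 78.6% had no peak left and 9.26% kept one in both libraries, so both shares inside control-only regions were close to the background. Sites inside regions exclusive to CTCF siRNA kept their peaks more often, with 64.2% (60.2 to 68.0) without a peak and 18.8% (15.9 to 22.3) with a peak in both. Counted by region, CTCF peaks covered 21.2% and 21.6% of control-only regions in control and 1.56% and 3.96% after CTCF siRNA. The difference of means was −18.6 percentage points (exact two-sided permutation test, p = 0.333, the smallest that 2 against 2 libraries can give), and the treatments did not overlap. On regions of all 4 libraries the same difference was −12.2 percentage points. The study's reporting summary lists far fewer reads for CTCF siRNA replicate 1 than for the other LNCaP CTCF libraries. The part of that depth in peaks kept in replicate 2 alone was not tested.

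Binding strength went with fate. Fold enrichment of a CTCF peak is its signal over the local background of its own library. Sites in control-only regions had a median control fold enrichment of 14.4 (interquartile range 9.29 to 21.9), against 12.5 over all control sites, 11.8 in regions of all 4 libraries and 14.6 in regions exclusive to CTCF siRNA. Among sites enriched under 10-fold, 89 of 90 in control-only regions had no peak left. From 10 to under 20 it was 102 of 129 (79.1%), from 20 to under 30 it was 43 of 66 (65.2%, 53.1 to 75.5), and at 30 or more it was 8 of 24 (33.3%, 18.0 to 53.3). Over all control sites the last 3 shares were 82.5%, 49.7% and 20.6%, and for sites in regions exclusive to CTCF siRNA they were 72.8%, 35.5% (27.6 to 44.4) and 10.9%. At 20 to under 30 the interval of the control-only sites lay above those of all control sites (48.3 to 51.01) and of sites in regions exclusive to CTCF siRNA. It overlapped that of sites in regions of all 4 libraries (54.5%, 51.1 to 57.9). In the other bins of strength all these intervals overlapped that of the control-only sites. From 10 to under 20 the control-only share was below that of all control sites.

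**Figure D3:**
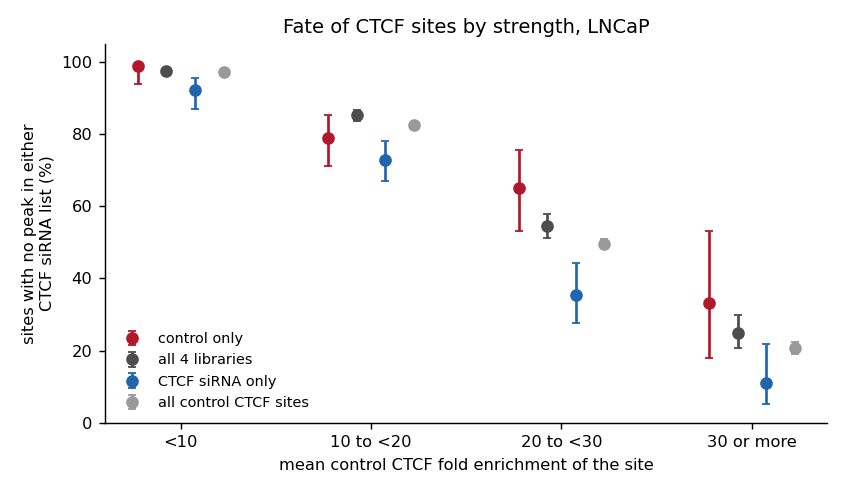
Percent of control CTCF sites with no peak in either CTCF siRNA library (vertical axis) by mean control fold enrichment of the site (horizontal axis) and by the class of the H3K27ac region that holds the site, with 95% Wilson intervals. The share falls with strength in every class, and for control-only regions it goes from 89 of 90 sites under 10-fold to 8 of 24 at 30 or more.

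At the 23 sites kept in both CTCF siRNA libraries the median fold enrichment was 24.4 and 28.2 in control and 8.19 and 11.998 after CTCF siRNA. The treatments did not overlap, with a difference of means of −16.2 (exact permutation test, two-sided, p = 0.333, the smallest possible). These 23 sites were picked for a peak in all 4 libraries, and their control-only regions had no H3K27ac call after CTCF siRNA. A match to the CTCF core consensus was found within 100 bp of the summit, with at most 1 mismatch, at 42 of 67 sites that kept a peak in 1 or both libraries (62.7%, 50.7 to 73.3) and at 83 of 242 with no peak left (34.3%, 28.6 to 40.5).

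The same DNA was bound in IMR90 fibroblasts. Of the 309 sites, 244 (79.0%, 74.1 to 83.1) had a peak in both IMR90 control libraries, against 72.6% of all LNCaP control sites and 68.6% (67.3 to 69.8) of sites in regions of all 4 libraries. Sites in regions exclusive to CTCF siRNA (78.2%) and in regions of both control libraries and 1 CTCF siRNA library (79.8%) had about the same share. Of those 244, 163 (66.8%) still had a peak in both IMR90 CTCF siRNA libraries, against 62.2% over all sites, 72.3% in regions exclusive to CTCF siRNA and 68.6% in regions of both control libraries and 1 CTCF siRNA library. IMR90 peaks covered 16.4% and 17.3% of control-only regions in control and 12.2% and 11.7% after CTCF siRNA, a difference of −4.87 percentage points in which the treatments did not overlap (exact permutation test, two-sided, p = 0.333). On regions of all 4 libraries it was −5.31 percentage points.

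**Figure D4:**
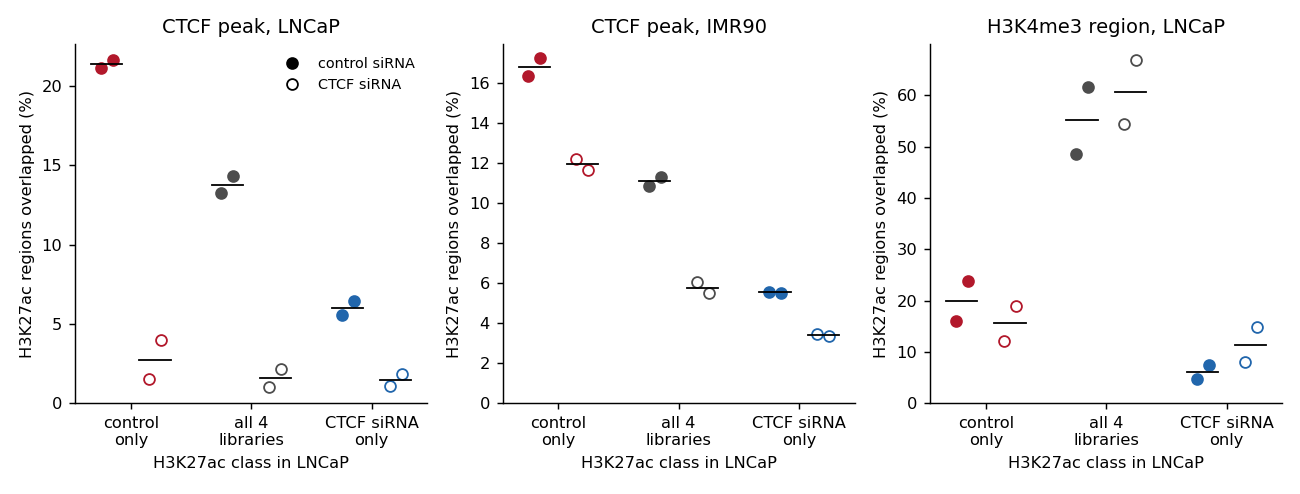
Percent of H3K27ac regions of each class (horizontal axis) overlapped by a LNCaP CTCF peak, an IMR90 CTCF peak or a LNCaP H3K4me3 region (vertical axis), with 1 point per library, filled for control and open for CTCF siRNA, and a bar at the mean of 2. Control-only regions had the highest CTCF shares in control, at 21.2% and 21.6% in LNCaP, and their H3K4me3 shares overlapped between treatments.

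H3K4me3 covered fewer control-only regions than regions of all 4 libraries, and more than regions exclusive to CTCF siRNA. It was called on 16.0% and 23.8% of them in control and on 12.2% and 18.96% after CTCF siRNA, a difference of −4.29 percentage points (exact permutation test, two-sided, p = 0.667), and the treatments overlapped. On regions of all 4 libraries it was called on 48.6% and 61.6% in control and 54.3% and 66.9% after CTCF siRNA. Divided by the share in regions of all 4 libraries, which takes out part of the difference in list length, the control-only share was 0.329 and 0.386 in control and 0.225 and 0.284 after CTCF siRNA, without overlap (exact permutation test, p = 0.333). Ratios of this kind were not among the planned comparisons, unlike the difference in H3K4me3 share. The same ratio for CTCF did not fall. For LNCaP CTCF it was 1.60 and 1.51 in control and 1.55 and 1.85 after CTCF siRNA, with overlap (exact permutation test, p = 0.667), and for IMR90 CTCF it was 1.51 and 1.53 in control and 2.01 and 2.12 after CTCF siRNA, without overlap (exact permutation test, p = 0.333). Both control libraries had H3K4me3 on 214 control-only regions (13.9%, 12.3 to 15.7), 46.2% of regions of all 4 libraries and 4.10% (3.75 to 4.49) of regions exclusive to CTCF siRNA. At 1000 to under 1500 bp these shares were 16.0% (13.5 to 18.8), 27.9% and 4.65%. Of the control-only regions, none of the 4 libraries had it on 1073 (69.7%), and all 4 had it on 144.

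In 41 control-only regions H3K4me3 followed H3K27ac, with a region in both control libraries alone. They were 2.66% (1.97 to 3.59) of control-only regions, against 0.836% (0.758 to 0.922) of regions of all 4 libraries and 0.0910% of regions exclusive to CTCF siRNA. Counted over merged H3K4me3 regions, a different denominator, 1.58% showed that pattern. Set against the 214 with H3K4me3 in both control libraries, they were 19.2% (14.4 to 24.96), compared with 1.81% (1.64 to 1.99) in regions of all 4 libraries. Wider regions have more room to meet an H3K4me3 call of any library, and like widths were not compared for this pattern. A merged H3K4me3 region exclusive to control overlapped 2.66% of control-only regions and 1.08% (0.988 to 1.17) of regions of all 4 libraries. H3K4me3 was called in both CTCF siRNA libraries and neither control library on 7 control-only regions (0.455%). The share was 2.38% for regions of all 4 libraries and 1.47% for regions exclusive to CTCF siRNA. Of the 6 among the 41 with the most called H3K27ac, the first lay in an intron of MAPK10, a JNK kinase. It had 2500 and 2150 called bases of H3K27ac in control, 6782 bp from a start site. An intron of ECT2, a guanine nucleotide exchange factor of cytokinesis, held 2100 and 1650 bases 450 bp from a start site. The others lay outside protein-coding genes 355749 bp from PTPRD (1750 and 1400 bases), in PEX14, a peroxisome import gene (1400 and 1500 bases), in an intron of CAAP1 (2250 and 1350 bases) and 911900 bp from SNX16 on chromosome 8 (1700 and 1350 bases). The PEX14 region alone among the 6 held a CTCF site.

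Control-only regions were slightly poorer in G and C than other H3K27ac regions. Over the central 1000 bp the median GC content was 42.1% (interquartile range 37.1 to 49.4), against 44.9% for regions of all 4 libraries and 43.7% for all merged regions. It was 49.4% in control-only regions with a CTCF site and 40.7% in those without. A match to the CTCF core consensus with at most 1 mismatch, on either strand, was in 8.96% (7.63 to 10.5) of control-only windows and 3.57% of all merged regions. In control-only regions without a CTCF site the share was 1.94% (1.30 to 2.86), near the 2.21% of regions of all 4 libraries without one. Other motifs of prostate and stress-activated factors were searched on both strands as plain words. The forkhead word TGTTTAC was in 22.9% (20.8 to 25.02) of control-only windows and 20.8% of all merged regions, and the GATA word AGATAAG was in 13.2% and 14.4%. The AP-1 word TGACTCA was in 16.2% (14.4 to 18.1) of control-only windows, 19.4% of all merged regions and 25.7% (24.9 to 26.5) of regions exclusive to CTCF siRNA. The ETS word CCGGAAG was in 3.57% (2.75 to 4.62), 4.86% and 3.20%, with the regions exclusive to CTCF siRNA last. The HOXB13 word CTCGTAAA was in 1.30% (0.842 to 1.998), 0.710% and 0.610%, and the E-box word CACGTG was in 11.6% (10.1 to 13.3), 11.4% and 9.96%. A full match to the androgen response element, in the same order, was in 0.455% (0.220 to 0.935), 0.935% and 1.47%. A word in a window is a description of sequence and shows no binding.

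The 12 control-only regions with the most called H3K27ac, ordered by the smaller of the bases called in the 2 control libraries, lay outside protein-coding genes except for those at PAX1 and EMCN, and H3K4me3 was called on none of them in any library. The first spanned chr20:21695251-21702050, from the last part of PAX1, a paired box transcription factor of the developing skeleton and thymus, to beyond its end. It had 6800 and 3950 called bases in control and 0 and 0 after CTCF siRNA. The CTCF site inside it, shown above, was weak, with a mean control fold enrichment of 8.32, and kept a peak in CTCF siRNA replicate 2 only. A second region of the 12 lay 94843 bp from a PAX1 start site at chr20:21783751-21787300, with 3550 and 3000 bases in control.

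A long stretch of chromosome 10 between MBL2, a lectin of innate immunity, and PCDH15, a cadherin of inner ear hair cells, held 3 of the 12. They had 5050 and 3850 bases at chr10:55065051-55070100, 5200 and 3450 at chr10:54968251-54973450 and 4300 and 2950 at chr10:54577351-54581800. The second and the third held a CTCF site with a mean fold enrichment of 10.9 and 13.1, and neither site had a peak left. Another region of the 12 adjoined the end of OR51E2, an odorant receptor gene known for its expression in prostate (chr11:4697551-4701400, 4922 bp from a start site), with 3850 and 2950 bases in control. The nearest CTCF siRNA H3K27ac was 2400 bp away. For the others the nearest protein-coding start site was far off. It was that of KLHL1 at 423284 bp (5350 and 3100 called bases in control), PLS3 at 181235 bp (3500 and 2800), BCHE at 644501 bp (5150 and 2700), EMCN at 51134 bp (3250 and 2600), KCNMB2 at 134320 bp (4150 and 2450) and SAYSD1 at 40332 bp (3000 and 2450). The PLS3 and EMCN regions each held a site, enriched 12.3-fold and 13.1-fold, and neither site kept a peak. In all 12, control replicate 1 called more bases than replicate 2.

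The 10 control-only regions with the strongest CTCF sites were narrow, and most of their CTCF sites kept a peak in CTCF siRNA replicate 2 and lost it in replicate 1. Their widths ran from 700 to 2050 bp. The site downstream of HSPB1, the gene of a small heat shock protein, lay in a region of 700 bp (chr7:75943351-75944050) that each control library called in full. Its fold enrichment was 47.9 and 51.5 in control and 7.80 and 26.5 after CTCF siRNA. Of the 10 sites, this was the 1 site that both CTCF siRNA libraries called. At 30-fold or more, 7 of 24 sites in control-only regions and 42.2% of all control sites kept a peak in both.

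Sites near SHISA4 (within LMOD1), in an intron of DAGLA, near GOLGA6B, ZFP90 and ANTXRL, and in ZNF131 kept a peak in replicate 2 alone. There the fold enrichment was 13.8, 22.6, 8.55, 10.4, 14.2 and 7.51, from mean control values of 48.1, 45.2, 44.4, 43.8, 40.5 and 39.4. GOLGA6B and ANTXRL lie in duplicated parts of the genome, where the placement of reads is uncertain. The sites in ENTREP3 (mean control 46.4), near TMEM106A (44.9) and near ANXA6 (37.2) had no peak left in either library. All 10 sites had a peak in both IMR90 control and both IMR90 CTCF siRNA libraries. They were picked for strength, and the IMR90 share of other sites of like strength was not computed. H3K4me3 was called in both control libraries on 2 of these regions, near GOLGA6B, where neither CTCF siRNA library had it, and in ZNF131, where 1 did.

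Most control-only regions had no other control-only region within 100 kb. The share to be met from their number and spacing alone was not computed, and other H3K27ac often lay nearer. With neighbouring control-only regions joined over gaps of at most 100 kb, 1150 had no such neighbour, 123 groups had 2, 30 had 3, 7 had 4, 3 had 6 and 1 had 8. The group of 8 spanned 283400 bp of chromosome 13 over TNFRSF19, a receptor of the tumour necrosis factor family, and MIPEP, a mitochondrial peptidase. Regions there were small (550 to 2700 bp) and stood among 14 regions that all 4 libraries shared. All 6 control CTCF sites of the interval had no peak left, and 2 of the 8 regions held one of them. Called H3K27ac in the whole interval was 131050 and 90650 bases in control and 77450 and 102400 after CTCF siRNA, so the treatments overlapped in total.

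Some groups left little H3K27ac behind. In a stretch of chromosome 2 with no protein-coding gene, 642917 bp from a start site of DDX18, 6 control-only regions lay within 164100 bp with no control CTCF site, and 20800 and 10350 bases called in control stood against 2550 and 2450 after CTCF siRNA. Around PAX1, 6 regions lay within 211250 bp, and the called bases were 42650 and 25400 in control and 4050 and 6500 after CTCF siRNA. Of the 3 control CTCF sites there, 1 had no peak left. This order between treatments follows from how the intervals were chosen, and it carries no test. A group of 6 on chromosome 2, 57925 bp from a start site of COPS8, a subunit of the COP9 signalosome, had 42450 and 33250 bases in control and 22950 and 29000 after CTCF siRNA. Here the lower control value stood above the higher CTCF siRNA value by less than the control libraries differed from each other. A group of 4 on chromosome 8, 366798 bp from TRPS1, had 8600 and 5250 bases in control and 0 and 0 after CTCF siRNA. This group and the one at CAMK2N1 were named out of 7 groups of 4 regions. The others of that size are not described here.

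**Figure D5:**
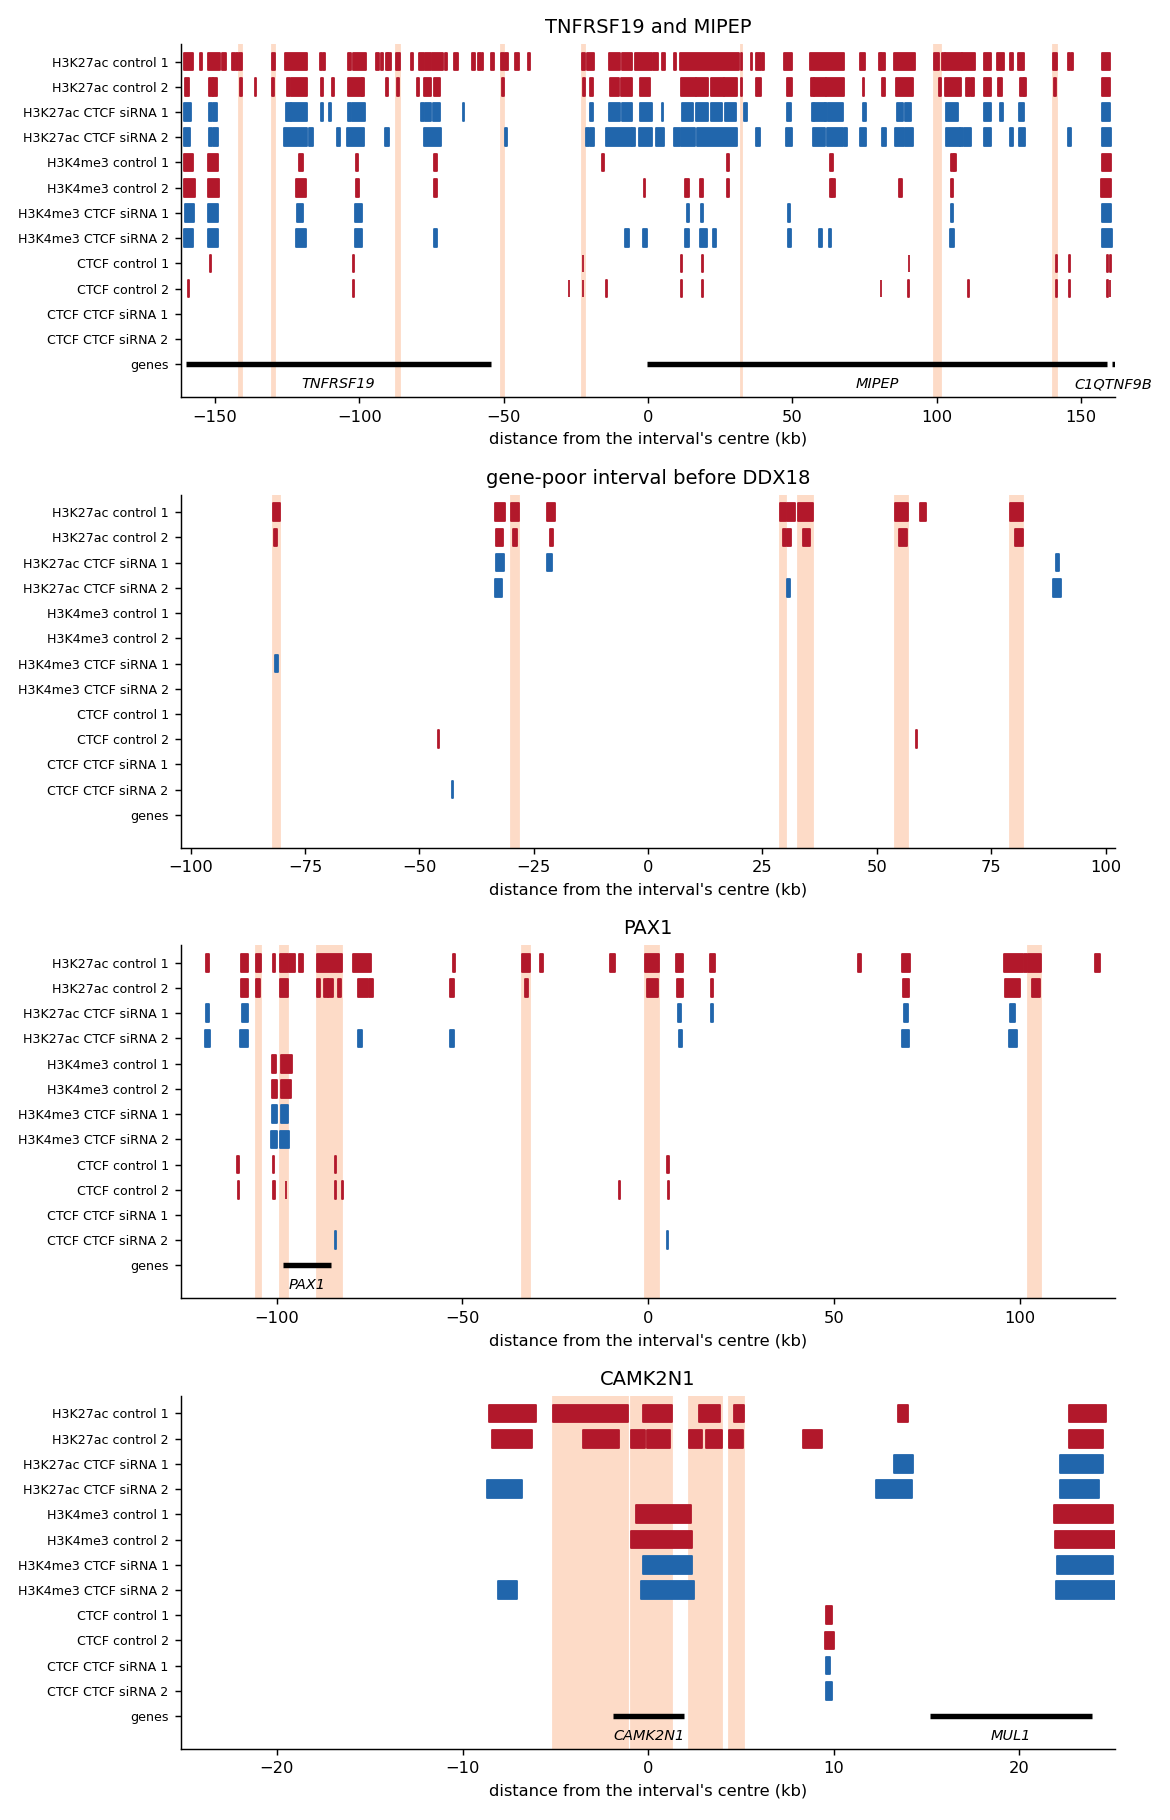
Called regions of H3K27ac and H3K4me3 and CTCF peaks of each LNCaP library (rows, red for control and blue for CTCF siRNA) by distance from the centre of the interval in kb (horizontal axis), in 4 intervals with several control-only regions, which are shaded, with protein-coding genes as black bars. At TNFRSF19 and MIPEP the shaded regions sit among many shared ones, while the span of the 4 shaded regions at CAMK2N1 holds no blue H3K27ac, which is called to either side, and the PAX1 interval holds 4050 and 6500 bases of it. H3K4me3 at the start sites of PAX1 and CAMK2N1 is called in all 4 libraries.

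The most compact of the 6 named groups lay over a single gene. At CAMK2N1, an inhibitor of the calcium- and calmodulin-dependent kinase CaMKII, 4 control-only regions lay within 10300 bp of chromosome 1 (chr1:20805601-20815900). Control libraries called 7250 and 6300 bases there and the CTCF siRNA libraries called none, with the nearest CTCF siRNA H3K27ac 1650 bp from the group. The 4 regions lay less than 1000 bp from one another in turn, so they may be parts of a single stretch. A control region overlapped by CTCF siRNA replicate 2 also lay less than 1000 bp from the first. With regions up to 1000 bp apart merged, the 4 would join it and leave the control-only class. H3K4me3 over the gene itself was called in all 4 libraries, with 2603 and 2853 bases in control and 2203 and 2353 after CTCF siRNA. No CTCF peak was called in the gene in any library. Within 20 kb of it each library called 1 CTCF peak. The 250 bases before the CAMK2N1 start site, which lie between a pair of these regions and overlap the upstream one at its edge, are shown because H3K4me3 was called over the gene in all 4 libraries while the H3K27ac on both sides was called in control alone.
CAMK2N1 promoter, chr1:20812704-20812953, minus strand: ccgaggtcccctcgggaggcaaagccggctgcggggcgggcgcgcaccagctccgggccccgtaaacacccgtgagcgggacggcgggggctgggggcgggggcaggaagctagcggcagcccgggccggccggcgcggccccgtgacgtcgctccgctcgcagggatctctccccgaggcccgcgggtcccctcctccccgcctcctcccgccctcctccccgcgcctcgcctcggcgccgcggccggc
This stretch was 81.6% G and C with 38 CpG dinucleotides, and its closest match to the CTCF core consensus had 3 mismatches.

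Few promoters lost H3K27ac outright. A control-only region lay within 1 kb of a start site of 181 protein-coding genes, and 55 of these had no CTCF siRNA H3K27ac within 1 kb of any of their start sites. For 25 genes there was none within 5 kb, and for 16 of the 25 none in the whole gene. H3K4me3 was still called at a start site of 17 of the 25 genes in both control and both CTCF siRNA libraries, was called at 4 in no library, and was lost from both CTCF siRNA libraries at 0. CTCF was called at a start site of 11 of the 25 in both control libraries. Over all 181 genes H3K4me3 was called in all 4 libraries at 148 (81.8%) and CTCF in both control libraries at 86 (47.5%), so the 44% of the 25 with CTCF was near that background. These genes were singled out after their values were seen. Those with the most called bases were PAX1, GCG, the gene of glucagon, CAMK2N1 and OR51E1, the neighbour of OR51E2. At PAX1 and CAMK2N1 H3K4me3 was called in all 4 libraries, and at GCG and OR51E1 in none. OAT, an enzyme of ornithine metabolism, DACT3, an inhibitor of Wnt signalling, PADI2, a peptidylarginine deiminase, and CMPK2, a mitochondrial nucleotide kinase, each had CTCF at a start site in both control libraries alone, and kept H3K4me3 in all 4.

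Few genes of pathways known in this cell type were near control-only regions, as was true of protein-coding genes in general. Over all 20090 protein-coding genes, 8.53% had a start site within 50 kb of one. Of 25 genes that androgen induces in prostate cells 3 did, STEAP4 (29295 bp), ACP3 (37563 bp) and STEAP2 (49913 bp), the first and last of which encode metalloreductases while ACP3 encodes prostatic acid phosphatase. None of 16 luminal transcription factor genes did. Of 21 genes of cholesterol and fatty acid synthesis 2 did, both of them regulators (SREBF1 and SREBF2). The counts were 3 of 21 immediate early and stress genes (HSPA1A, HSPA1B and JUNB), 2 of 24 cell cycle genes (CCND1 and E2F1), 3 of 22 genes of chromatin and DNA methylation enzymes (DNMT3A, KMT2C and TET1) and 1 of 17 interferon response genes (ISG15). None of 12 basal, 12 neuroendocrine, 14 CTCF and cohesin and 21 imprinted genes had one. The shares of the lists with any gene ran from 5.88% to 14.3%, around the 8.53% of all genes, on counts of 1 to 3.

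Among these, the region 22126 bp from CCND1, the cyclin of the G1 phase, lay at LTO1 and held a control CTCF site, with 650 and 800 called bases. The region 24650 bp from JUNB lay at a start site of HOOK2, with 950 and 1100 bases, and had H3K4me3 in both control libraries alone. The region nearest to DNMT3A, a DNA methyltransferase, was inside the gene 9871 bp from a start site, with 750 and 1050 bases. HSPA1A and HSPA1B, neighbouring genes of nearly identical sequence, shared 1 region that touched CTCF siRNA H3K27ac, and HSPA1A had another at VWA7 with a CTCF site. The lists cannot tell a mark lost from some cells from a mark weaker in all cells.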

How the data were processed

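ChIP-seq of 12 LNCaP and 4 IMR90 libraries was used. Reads had been placed on hg19 by the authors with Bowtie, without duplicates or reads of several positions, and enriched regions were called in each library without pooling. The deposited histone lists, made with PeakRanger, give each region a score of unstated meaning, used only for ranking (lowest first, then widest). The deposited CTCF lists, made with MACS2, give the fold enrichment over background, a ratio, and p-values and q-values on a −log10 scale. The lists carry no read counts per region, so the depth behind a region is unknown and a missing region is one below a caller's threshold. The study's reporting summary gives reads per library, fewest by far for CTCF siRNA replicate 1 among the LNCaP CTCF libraries. Low-cell IMR90 libraries were not used, and some marker genes are not reported here. The p-values measure only the spread between 2 libraries per group.

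From these lists regions were merged and compared by at least 1 shared base with Python 3.11.15, pandas 2.3.3 and numpy 2.4.6, plotted with matplotlib 3.10.9, and annotated with GENCODE release 44 on GRCh37, after checking that list ends fit its chromosomes. Interval, overlap and motif code was tested on simulated data. Shares carry Wilson 95% intervals. H3K4me3, CTCF and enrichment values were compared between treatments by exact two-sided permutation of 2 against 2 libraries. Regions named in the text were the 12 with the most called control H3K27ac, the 10 with the strongest CTCF site, the 6 groups with most members, up to 6 with H3K4me3 lost, those near listed genes and those at the edge of the rule. Groups of 4 regions tied for the last places among the groups. The members, gene lists and rules were chosen with earlier results of these data known. The alternatives concerned merging, list length and threshold, cover, contigs, CTCF threshold, distances, the replicate block and leaving out each library.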

Additional observations from a re-analysis of the deposited data

How the results depend on the processing

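Limits come from the lists themselves, which hold calls and not reads, so that weak regions near a threshold can enter or leave the control-only class. With lists of equal length 2677 regions were control-only, and a CTCF site was in 15.2%, H3K4me3 in both control libraries on 17.0%, and no CTCF siRNA H3K27ac within 10 kb for 44.6%. With the best 50% of each list there were 849 regions, with 17.4%, 26.97% and 53.4%, and 22.03% had a start site within 1 kb. Merging regions up to 1000 bp apart gave 39.9% with no CTCF siRNA H3K27ac within 10 kb, and other distances gave 48.2% (5 kb) and 6.75% (50 kb). A CTCF peak in either control library was in 23.6% and a site within 1 kb at 22.1%. H3K4me3 in either control library was on 25.8%, and within 1 kb it was at 16.4%. A start site lay within 2.5 kb of 26.2%, and a protein-coding one within 1 kb of 11.3%.

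Leaving out 1 library at a time gave from 2665 to 12102 regions, the highest without H3K27ac control replicate 2. Leaving out an H3K27ac library removes a condition from the rule, so this number could only stay or rise. The share with a CTCF site went from 7.19% to 21.6% and fell below that of regions of all remaining libraries without either H3K27ac control replicate. For regions of 1000 to under 1500 bp, examined after the data were seen, it went from 11.0% to 18.9% and was 17.0% with lists of equal length. Sites without a peak went from 73.3% to 91.9%, the latter without CTCF siRNA replicate 2 of the CTCF libraries. H3K4me3 went from 5.78% to 23.8%, start sites from 12.5% to 18.97% and regions with no CTCF siRNA H3K27ac within 10 kb from 25.7% to 37.1%. The difference in H3K4me3 share stayed negative, from −8.18 to −0.390 percentage points, and that in CTCF share from −19.8 to −17.4. With the replicate block the differences were −4.29, −18.6 and, for fold enrichment, −16.2, each with an exact sign-flip p of 0.5, the smallest that 2 pairs can give. Nothing in the labels says that a replicate number pairs libraries of different treatments. Apart from this loosening of the rule, the causes of these changes were not tested.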
